A study of Mus musculus with 6 samples.

Results

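Bone marrow-derived basophils (BMBAs) that were stimulated with IL-3 held more transcripts of Nfil3 and of Bhlhe40, and fewer of 6 other genes of the circadian clock and its outputs, than BMBAs given PBS. The genes described here are 10 of the 37043 gene symbols in the deposited count table: Nfil3, Dbp, Tef, Hlf, Per1, Per2, Bhlhe40, Nr1d1, Nr1d2 and Clock. They were chosen by symbol, as Nfil3, its relatives among the PAR bZIP factors, and genes of the clock, and all 10 had enough counts to be tested. Nfil3 and Bhlhe40 rose, Dbp, Tef, Hlf, Per1, Nr1d1 and Nr1d2 fell, and Per2 and Clock were not called, where 38.2% of all tested genes were called, 18.0% higher and 20.2% lower.

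Bulk RNA-seq had been performed on BMBAs of wild-type C57BL/6J mice, which are basophils grown from bone marrow. Both groups shared the same culture, 7 days of bone marrow cells at a cytokine dose of 0.3 ng/mL (the methods name it as IL-3) followed by enrichment with beads against CD49b. The groups then differed in the last 6 h, with PBS in 3 cultures and 10 ng/mL IL-3 in the other 3, 1 library per culture. Whether the 3 cultures of a group came from separate mice, the time of day at harvest, and whether the PBS cultures still held IL-3 during those 6 h are not stated in the labels or methods, so p-values measure the spread between cultures. The study made these libraries to ask what IL-3 changes in basophils that might release their precursors from the bone marrow.

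The circadian clock is a loop of transcription factors and their inhibitors found in nearly every cell. CLOCK pairs with BMAL1 (the product of Arntl) and switches on genes with E-box sites, among them Per1, Per2, Nr1d1, Nr1d2, Dbp, Bhlhe40 and Bhlhe41, and the PER, CRY and BHLHE proteins then hold that pair back, while the REV-ERB proteins made from Nr1d1 and Nr1d2 repress Arntl. The PAR bZIP factors DBP, TEF and HLF carry the rhythm outward by activating genes with D-box sites, and NFIL3, which was named for its regulation by interleukin 3, represses from the same sites. In the immune system NFIL3 is best known as a factor that natural killer (NK) and other innate lymphoid cells need to develop, and it was described early on as a factor that kept IL-3-dependent pro-B cells alive.

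Because several of these genes moved together, the stretch before the transcription start was read for those members that the RefSeq table of promoters holds (build GRCm38.p6), which are 8 of the 10, in 12 windows from 250 bases before to 50 after a start. Per2 and Bhlhe40 were not among them. The next lines give the 250 bases before the start for Nfil3, the member that rose most, for Per1 and Tef, which fell and have an E-box there (both stretches lie inside the annotated gene, before a RefSeq start within it), and for Hlf, which fell and has a CRE, the site of CREB factors. Capitals mark the motif, and the Nfil3 stretch held none of the motifs searched.

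Nfil3 (chr13:52981040-52981289, minus strand): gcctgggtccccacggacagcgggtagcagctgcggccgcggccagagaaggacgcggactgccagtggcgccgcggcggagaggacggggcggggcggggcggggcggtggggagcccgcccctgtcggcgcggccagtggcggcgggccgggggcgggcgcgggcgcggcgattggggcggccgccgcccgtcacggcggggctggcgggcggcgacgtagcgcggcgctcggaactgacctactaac
Per1 (chr11:69098699-69098948, plus strand): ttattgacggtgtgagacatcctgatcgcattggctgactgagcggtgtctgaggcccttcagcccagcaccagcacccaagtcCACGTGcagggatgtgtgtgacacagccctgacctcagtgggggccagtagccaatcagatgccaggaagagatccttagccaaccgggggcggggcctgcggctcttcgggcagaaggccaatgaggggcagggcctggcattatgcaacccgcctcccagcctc
Tef (chr15:81802423-81802672, plus strand): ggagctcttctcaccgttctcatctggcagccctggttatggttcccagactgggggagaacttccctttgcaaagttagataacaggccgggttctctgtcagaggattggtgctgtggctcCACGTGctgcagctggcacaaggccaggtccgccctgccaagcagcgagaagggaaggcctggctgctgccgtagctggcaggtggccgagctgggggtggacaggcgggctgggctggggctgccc
Hlf (chr11:90390918-90391167, minus strand): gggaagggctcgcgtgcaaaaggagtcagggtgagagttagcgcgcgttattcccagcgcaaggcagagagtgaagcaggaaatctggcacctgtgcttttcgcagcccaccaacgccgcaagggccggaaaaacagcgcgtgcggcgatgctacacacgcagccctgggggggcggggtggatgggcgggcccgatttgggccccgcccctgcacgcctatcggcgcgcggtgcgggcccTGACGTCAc

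The motifs searched on both strands of the 12 windows were the E-box CACGTG, the D-box TTATGTAA, the relaxed D-box TTANGTAA (which includes the former), the ROR and REV-ERB element (RORE), the STAT site TTCNNNGAA and the CRE TGACGTCA. The E-box occurred in 3 windows, 1 of Per1 and 2 of Tef, against 7.15% of all 32851 promoter windows of the table. The STAT site occurred in 2 windows, 1 of Dbp and 1 of Per1 (all windows, 8.3%), and the CRE in the window of Hlf (all windows, 1.79%). No D-box or ROR element was found in these windows, and these letters occur in 2.32% (relaxed D-box), 0.938% (D-box) and 0.219% (ROR element) of all windows. These are matches of letters and not measured sites, and a missing match says only that the letters are not in the window.

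Library totals ranged from 10537540 to 13999287 counts. Levels are normalised read counts (CPM, scaled by TMM to the effective library size), and the call threshold was a Benjamini-Hochberg adjusted p of 0.05 from the quasi-likelihood test of edgeR, with 16675 genes tested. This gave 3003 genes higher and 3372 lower in IL-3, and with library totals alone as the scaling 1698 higher and 5030 lower. Basophil markers were abundant in every library, with a summed level of 10249.7 to 11444 CPM in PBS and 15297 to 15494 CPM in IL-3 over 8 genes. The libraries also held transcripts of monocytes and macrophages, whose 8 markers summed to 13611 to 14751 CPM in PBS and 7066 to 7773 CPM in IL-3, with 6 called lower and 2 higher, and none at 0. Genes of dividing cells fell in all 10 of 10 cases, from a sum of 1018 to 1119 CPM to 486 to 573 CPM. These shifts moved with the results below, and their part in them was not tested. In such bulk libraries, fewer cells of a type and less RNA per cell cannot be told apart.

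Nfil3 encodes the bZIP repressor and was the member with the largest change. Nfil3 (ENSMUSG00000056749, chromosome 13, 52967209 to 52981073, minus strand, GRCm38) was measured at 54.7, 62.3 and 61.3 CPM in the PBS libraries and at 264, 279 and 288 CPM in the IL-3 libraries. The lowest IL-3 library lay far above the highest PBS library, and the libraries of each group lay close together. The means were 59.4 ± 4.10 CPM and 277 ± 11.8 CPM (SD, n = 3 each), a 4.66-fold rise with a log2 fold change of 2.22 (SE 0.0653) and an edgeR adjusted p of 2.61e-13. Among all tested genes this was rank 148 from the top. Its value stayed between 2.06 and 2.25 under all 16 alternative scalings, filters, tests and left-out libraries run for it.

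The 3 PAR bZIP activators, which share the D-box with NFIL3, all fell. Dbp (ENSMUSG00000059824, chromosome 7, 45705088 to 45710203, plus strand) is the member of the trio whose rhythm is strongest in many tissues. It went from 15.1, 14.6 and 16.2 CPM in PBS to 5.33, 7.50 and 6.67 CPM in IL-3, a 2.33-fold fall with a log2 fold change of -1.22 (SE 0.150, edgeR adjusted p 7.73e-06). The highest IL-3 library lay well below the lowest PBS library. Hlf (ENSMUSG00000003949, chromosome 11, 90336536 to 90390895, minus strand), also known from its fusion in leukaemia and as a marker of blood stem cells, was measured at 14.5, 14.4 and 10.1 CPM in PBS and at 5.63, 5.75 and 5.89 CPM in IL-3. PBS replicate 3 was the lowest of its group for Hlf, yet lay above all IL-3 libraries, and the log2 fold change was -1.17 (SE 0.168, edgeR adjusted p 3.96e-05). Tef (ENSMUSG00000022389, chromosome 15, 81802421 to 81826863, plus strand) had the highest level per length of the trio and the smallest fitted fall. Its libraries had 56.9, 54.5 and 42.9 CPM in PBS and 30.5, 32.7 and 32.0 CPM in IL-3, which gave a log2 fold change of -0.70 (SE 0.101, edgeR adjusted p 4.46e-05). The 95% interval of the log2 fold change was -0.91 to -0.48 for Tef, -1.54 to -0.90 for Dbp and -1.53 to -0.82 for Hlf, and the differences between the falls were not tested. In a test against a fold of 1.5, Tef was the only fallen member no longer called.

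Per length of transcript, the balance between the repressor and the activators shifted. With CPM divided by the length in kb of the longest coding transcript, Nfil3 stood at 29.3 ± 2.02 CPM per kb in PBS, against a sum of 22.3 ± 1.73 CPM per kb for Dbp, Tef and Hlf (SD, n = 3). In IL-3 the values were 137 ± 5.82 and 11.8 ± 0.864 CPM per kb. The ratio of Nfil3 to that sum was 1.14, 1.34 and 1.49 in the PBS libraries and 12.0, 10.98 and 11.9 in the IL-3 libraries. Per kb, Nfil3 lay above the summed activators in every PBS library, by less than 1.5 times, and was more than 10 times that sum in every IL-3 library. The order in PBS depends on this division by length. In CPM not divided by length, Nfil3 lay below the activators together in every PBS library and above them in every IL-3 library. Which transcripts of these genes the cells held was not measured. The ratio combines the changes given above and is a description of transcripts, with no test of its own.

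**Figure D1:**
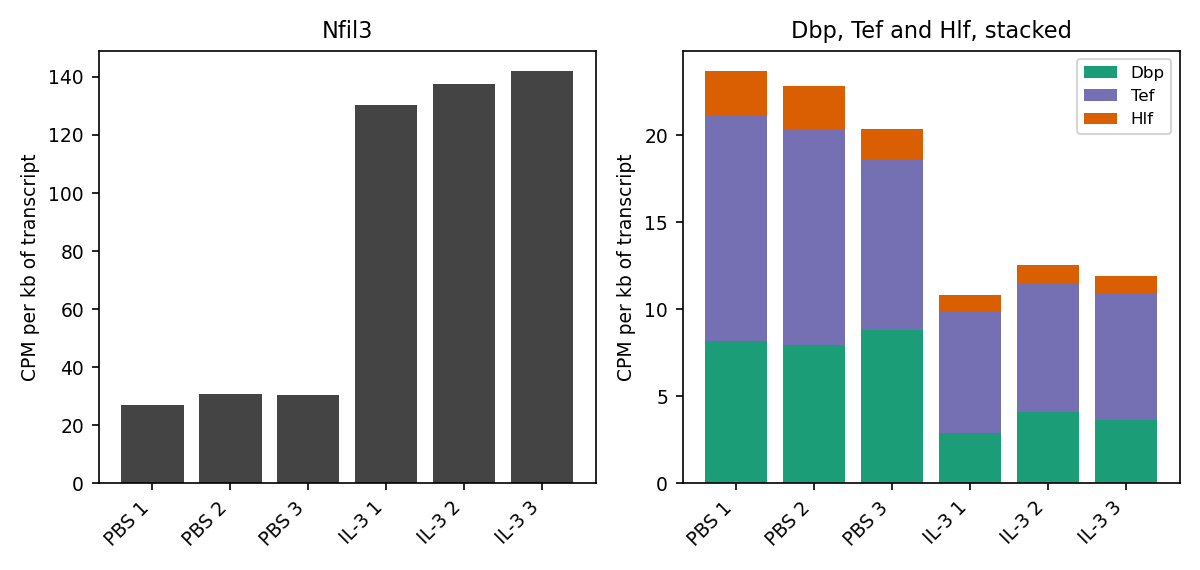
Level of Nfil3 (left) and of Dbp, Tef and Hlf stacked (right) in each of the 6 libraries, in CPM per kb of the longest coding transcript. The y axes differ between the panels and both start at 0. Nfil3 lies between 27.0 and 30.7 CPM per kb in PBS and between 130.4 and 142 in IL-3, and the stacked sum is between 20.4 and 23.7 in PBS and between 10.8 and 12.5 in IL-3.

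Of the members that encode repressors of CLOCK and BMAL1, Bhlhe40 rose, Per1 fell and Per2 was not called. Bhlhe40 (ENSMUSG00000030103, chromosome 6, 108660629 to 108666925, plus strand), which encodes the E-box repressor DEC1 and is induced in many activated immune cells, was the other member that rose. It was measured at 103, 94.2 and 95.7 CPM in PBS and at 319, 333 and 343 CPM in IL-3, with means of 97.8 ± 5.01 CPM and 332 ± 11.7 CPM (SD, n = 3 each). All IL-3 libraries were over 3 times the level of any PBS library, and the log2 fold change was 1.76 (SE 0.0584, edgeR adjusted p 1.24e-12). Per1 (ENSMUSG00000020893, chromosome 11, 69095217 to 69109960, plus strand), a period gene that also answers to cAMP and glucocorticoids, fell from 122, 122 and 65.5 CPM to 45.4, 52.3 and 36.7 CPM. The PBS libraries were far from even, because PBS replicate 3 had 53.8% of the mean of the other two, but it still lay above every IL-3 library. The log2 fold change of Per1 was -1.20 (SE 0.181, edgeR adjusted p 6.48e-05), and it was -1.44 without PBS replicate 3. Per2 (ENSMUSG00000055866, chromosome 1, 91415982 to 91459324, minus strand), its close relative, had the lowest level per length of the members, at 3.27, 2.54 and 3.52 CPM in PBS and 2.37, 2.75 and 1.71 CPM in IL-3. Its groups overlapped, and the log2 fold change of -0.46 had a 95% interval of -1.02 to 0.11 (edgeR adjusted p 0.196). With 22 to 40 counts per library, a fall as large as that of Per1 lies outside this interval, and no change as well as a milder fall lies inside it.

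The REV-ERB receptors, which bind haem and repress transcription, fell together. Nr1d1 (ENSMUSG00000020889, chromosome 11, 98767932 to 98775333, minus strand), encoding REV-ERBα, had 133, 159 and 85.7 CPM in PBS and 59.4, 54.5 and 44.8 CPM in IL-3. Its PBS libraries spread widely, with PBS replicate 3 at 58.7% of the mean of the other two, and again no PBS library reached down to the IL-3 libraries. The log2 fold change was -1.25 (SE 0.162, edgeR adjusted p 1.34e-05). Nr1d2 (ENSMUSG00000021775, chromosome 14, 18204054 to 18239127, minus strand), encoding REV-ERBβ, went from 27.7, 24.3 and 12.4 CPM to 9.08, 11.8 and 8.38 CPM, a log2 fold change of -1.14 (SE 0.230, edgeR adjusted p 0.000961). Here the lowest PBS library and the highest IL-3 library nearly met, at 12.4 and 11.8 CPM. Without PBS replicate 3 the log2 fold change of Nr1d2 was -1.41, and without PBS replicate 1 it was -0.91 with an edgeR adjusted p of 0.00701. Exons of Nr1d1 overlap exons of Thra, a thyroid hormone receptor gene on the opposite strand, over 263 bases. Thra, which is no member, fell as well, by a log2 fold change of -1.17 (edgeR adjusted p 2.00e-05), from 14.8, 16.1 and 11.5 CPM to 6.30, 6.23 and 6.26 CPM. How strand was handled is not stated, so reads from the shared stretch cannot be told apart. Dbp shares 539 exonic bases with Sphk2 in the same way, and Sphk2 was not called (log2 fold change -0.25, edgeR adjusted p 0.0634). Sphk2 was called lower with library totals, with iterated TMM and without IL-3 replicate 3, at edgeR adjusted p of 0.00332, 0.0413 and 0.0246.

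Clock (ENSMUSG00000029238, chromosome 5, 76209868 to 76304792, minus strand), the gene of the activator itself, was measured at 16.0, 12.7 and 15.9 CPM in PBS and at 14.9, 9.33 and 12.1 CPM in IL-3. The groups overlapped, and the log2 fold change of -0.30 (95% interval -0.65 to 0.04, edgeR adjusted p 0.162) did not pass the threshold. Clock was called lower without IL-3 replicate 1, at -0.47 with an edgeR adjusted p of 0.0406, and when libraries were scaled by their totals alone, at -0.47 with an edgeR adjusted p of 0.0343. That scaling moved the log2 fold changes of all genes by a median of -0.16.

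**Figure D2:**
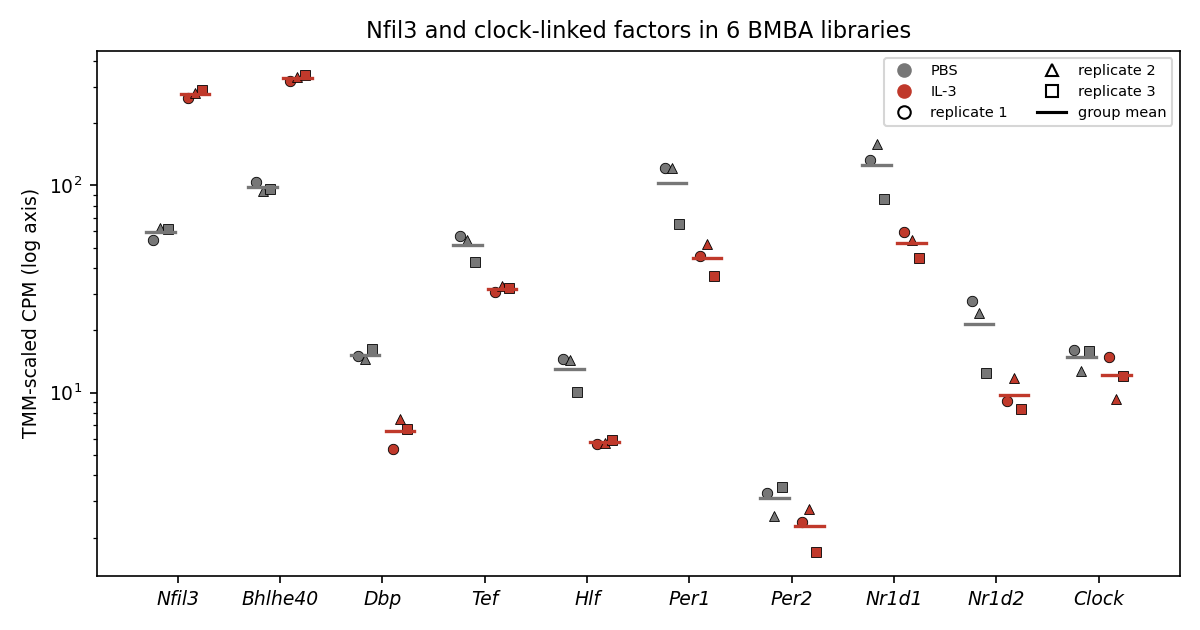
TMM-scaled CPM (log axis) of the 10 members in the 3 PBS (grey) and 3 IL-3 (red) libraries. Symbols mark the replicate number and horizontal lines the group means. The IL-3 libraries lie above all PBS libraries for Nfil3 and Bhlhe40 and below them for Dbp, Tef, Hlf, Per1, Nr1d1 and Nr1d2, and the groups overlap for Per2 and Clock.

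In all, 2 of the 10 members were called higher and 6 lower, where 18.0% and 20.2% of all tested genes were called in these directions. The same 8 members had groups that did not overlap, against 48.2% of all tested genes (23.8% higher and 24.4% lower). The median log2 fold change of the 10 members was -0.92, and that of all tested genes was -0.003. For 5 of the 6 falls the log2 fold changes ran from -1.25 to -1.14, and it was -0.70 for Tef. No 50-base stretch of the transcripts of 9 members occurred on the same strand in another gene, and for Nr1d2 the share was 5.13%.

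The order of the members by level per length changed between the groups. In PBS the REV-ERBα gene Nr1d1 stood first at 46.3 ± 13.6 CPM per kb, followed by Bhlhe40 at 31.4 ± 1.61, Nfil3 at 29.3 ± 2.02 and Per1 at 22.0 ± 6.95 (SD, n = 3 each). The libraries of Nr1d1 and Bhlhe40 overlapped in level per kb, as did those of Bhlhe40 and Nfil3, so the order within these pairs is not resolved, while Nr1d1 lay above Nfil3 in every PBS library. In IL-3, Nfil3 stood first at 137 ± 5.82 CPM per kb and Bhlhe40 next at 107 ± 3.75, far above Nr1d1 at 19.5 ± 2.73 and Per1 at 9.59 ± 1.68. Tef, Dbp and Nr1d2 followed in this order in both groups, and no neighbours among them overlapped. Hlf, Clock and Per2 had the lowest levels, and the levels of Clock and Hlf overlapped in IL-3 but not in PBS.

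The PBS libraries lay further apart for some members than for others. PBS replicate 3 was the lowest PBS library for 5 members, namely Tef, Hlf, Per1, Nr1d1 and Nr1d2, with 47.8% (Nr1d2) to 77.0% (Tef) of the mean of the other two. For Nfil3, Bhlhe40, Dbp, Per2 and Clock the same library lay between 96.8% and 121% of that mean. Within the IL-3 group, replicate 3 was the lowest library for Per1, Per2, Nr1d1 and Nr1d2, and replicate 1 for Nfil3, Bhlhe40, Dbp, Tef and Hlf. Leaving out PBS replicate 3 left 2 members called higher and 6 lower.

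**Figure D3:**
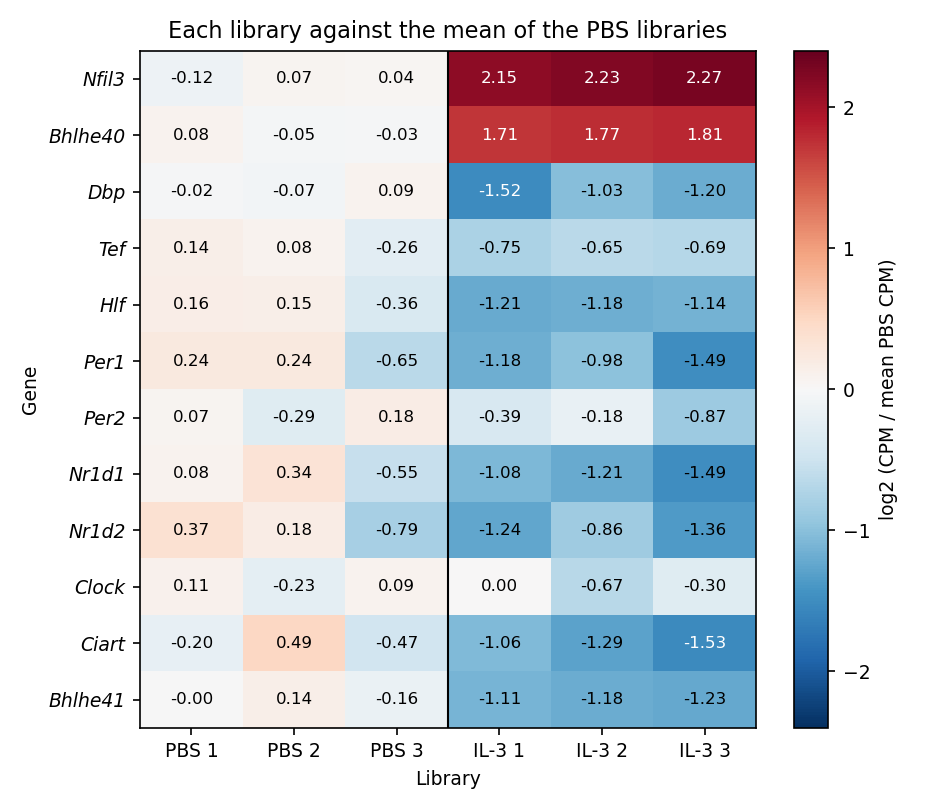
Each cell gives the log2 ratio of a library's CPM to the mean of the 3 PBS libraries, for the 10 members and for Ciart and Bhlhe41, on a colour scale from blue (below) to red (above). PBS replicate 3 is at -0.65 for Per1, -0.55 for Nr1d1 and -0.79 for Nr1d2, between the other PBS libraries and the IL-3 libraries.

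The rest of the core clock was read from a list of 10 further genes. Of these, 9 had enough counts to be tested, 3 were called lower and none was called higher (all tested genes, 20.2% and 18.0%), while Rorb was too rare to be tested. The median log2 fold change of the 9 was -0.46. Ciart, which encodes the CLOCK and BMAL1 repressor CHRONO, fell from 60.9, 97.8 and 50.5 CPM to 33.5, 28.5 and 24.1 CPM, a log2 fold change of -1.29 (SE 0.186, edgeR adjusted p 4.41e-05). PBS replicate 3 was the lowest PBS library for Ciart too. Bhlhe41 encodes DEC2, the close relative of the product of Bhlhe40, and it moved the other way. It went from 76.1, 84.2 and 68.3 CPM in PBS to 35.2, 33.6 and 32.6 CPM in IL-3, with a log2 fold change of -1.17 (SE 0.0844, edgeR adjusted p 1.64e-08), and the 95% interval of -1.35 to -0.99 lies apart from that of Bhlhe40, 1.64 to 1.89. Rora, a receptor that activates from the elements that REV-ERB proteins repress, fell from 50.5, 41.9 and 54.7 CPM to 29.8, 32.8 and 37.9 CPM (log2 fold change -0.55, edgeR adjusted p 0.000784).

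The remaining core genes did not pass the threshold. Arntl, the gene of BMAL1, had 8.43, 8.86 and 12.1 CPM in PBS and 7.90, 9.49 and 9.85 CPM in IL-3, and its log2 fold change of -0.10 had a 95% interval of -0.46 to 0.26 (edgeR adjusted p 0.686). A change of Arntl as large as that of Nr1d1 is outside the interval, and the value was 0.0771 without PBS replicate 3. The cryptochrome genes Cry1 and Cry2, whose products repress CLOCK and BMAL1, had log2 fold changes of 0.29 and -0.22. Cry1 was called higher without PBS replicate 1 (edgeR adjusted p 0.0408), and all its IL-3 libraries lay above its PBS libraries. Per3 was at -0.46, with all IL-3 libraries below the PBS libraries, and was called lower without PBS replicate 3 (edgeR adjusted p 0.0336). Npas2, a stand-in for Clock in some tissues, was at -0.61 and Arntl2 at 0.23, with edgeR adjusted p of 0.334 and 0.402. With library totals as the scaling, Per3 and Cry2 were also called lower.

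**Figure D4:**
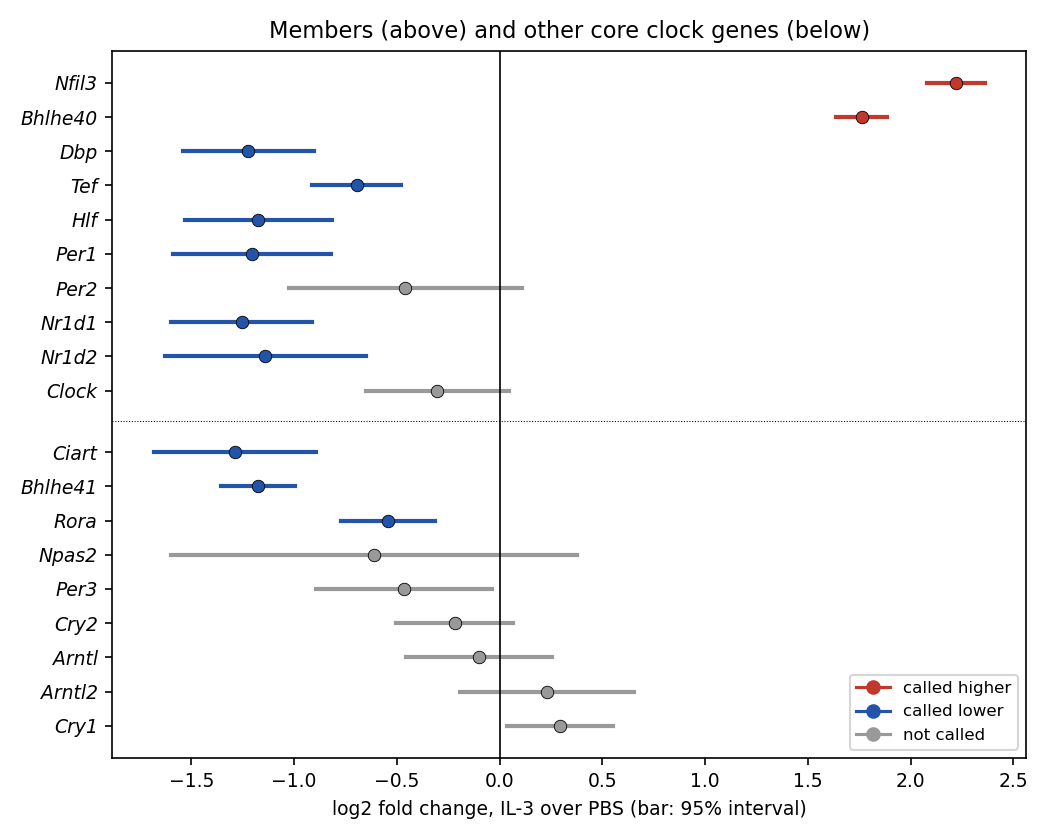
Log2 fold change of IL-3 over PBS with its 95% interval from the edgeR fit (n = 3 libraries each), for the 10 members above the dotted line and the 9 tested genes of the other core clock list below it. Red marks genes called higher, blue genes called lower and grey genes not called. Nfil3 and Bhlhe40 stand at 2.22 and 1.76, and Bhlhe41 at -1.17.

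Genes of proteins that modify the clock proteins were read from a further list. Of 9 such genes, all were tested, 2 were called higher, 3 lower and 4 not called (all tested genes, 18.0% and 20.2%), so the shares lay near those of all genes, and the median log2 fold change was -0.27. Csnk1d, whose kinase phosphorylates PER proteins, rose by 0.30 on the log2 scale (edgeR adjusted p 0.000536), while its relative Csnk1e fell with a log2 fold change of -0.42 (edgeR adjusted p 0.00259). Fbxw11, a part of the ubiquitin ligase that removes PER proteins, rose by 0.39 (edgeR adjusted p 0.00201). Neither Csnk1d nor Fbxw11 was called with library totals as the scaling. Usp2, a deubiquitinase with a rhythm in many tissues, fell with a log2 fold change of -1.04 (edgeR adjusted p 0.0123) from 2.29, 2.98 and 3.79 CPM to 1.28, 1.92 and 1.16 CPM, and lost its call without PBS replicate 3 or IL-3 replicate 3, at -0.85 and -0.89. Nono, named here after its values were seen, was at -0.27 (edgeR adjusted p 0.0204) and lost its call without any of PBS replicate 3, IL-3 replicate 2 and IL-3 replicate 3, at -0.16, -0.24 and -0.24. Fbxl21, Btrc, Gsk3b and Timeless were not called, though with library totals Btrc and Gsk3b were called lower.

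Lists of genes known as targets of clock factors were read as well, beside the same shares of all tested genes, 18.0% higher and 20.2% lower. Of 6 genes of clock output, 5 were tested, with 2 called higher, 2 lower and a median log2 fold change of 0.14. Nampt, the rate-limiting enzyme of NAD salvage, rose by 0.98 on the log2 scale and Cdkn1a, an inhibitor of cell division, by 2.03 (edgeR adjusted p 8.21e-10 and 1.39e-13). Wee1, a kinase that holds back mitosis, and Por, the reductase that serves cytochromes P450, fell with log2 fold changes of -0.76 and -0.50 (edgeR adjusted p 0.000702 and 3.40e-06). Alas1 was not called (but was called higher without PBS replicate 1), and Ppara was too rare to be tested. Among 7 genes that REV-ERB proteins are known to repress in other cells, 2 were called higher, 1 lower and 4 not called, shares near those of all genes, with a median log2 fold change of -0.06. The higher genes were the cytokine gene Il6 at 3.95 and the chemokine gene Ccl2 at 4.43, and the lower one was Cx3cr1, a chemokine receptor of monocytes, at -0.70 (edgeR adjusted p 1.89e-15, 1.78e-08 and 0.00871). The Ccl2 value rested in part on PBS replicate 1, which had 22 counts against 5 and 6, and was 5.37 without it. Arntl, Npas2, Cry1 and Mmp9 of that list were not called.

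Since Nfil3 is a factor of NK and innate lymphoid cells, their markers were measured too. Of 8 such genes, 3 were tested. Gzma had no count in any library, which allows up to 0.232 to 0.295 CPM depending on the library, a limit for counting error only. Ncr1, Klrb1c, Eomes and Prf1 were below 1 CPM in every library, as was the mean of Gata3 (log2 fold change -0.13, edgeR adjusted p 0.827). Nkg7, a gene of cytotoxic granules, rose by 2.22 on the log2 scale (edgeR adjusted p 2.33e-09), to 29.3 ± 1.73 CPM, and Il7r, a receptor gene of lymphoid cells, fell from 244 ± 13.0 CPM to 105 ± 6.26 CPM (SD, n = 3 each, edgeR adjusted p 2.73e-10).

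The 5 genes whose pattern over the 6 libraries was nearest to that of Nfil3 were Cited2, Tnfrsf18, Lilrb4a, Tnfsf14 and Gm4070. Nearness was measured as the Euclidean distance between log2 CPM values centred on each gene's mean, among 6692 tested genes with a mean of at least 20 CPM, and the distances ran from 0.145 to 0.217 on the log2 scale. Cited2, the gene of a co-regulator that binds CBP and p300, went from 106, 131 and 129.7 CPM to 517, 534 and 558 CPM. Tnfrsf18 and Tnfsf14 encode the receptor GITR and the ligand LIGHT of the TNF families, and had log2 fold changes of 2.10 and 2.32. Lilrb4a, which encodes an inhibitory surface receptor, was at 2.33 and Gm4070 at 2.21, but they shared 46.7% and 97.8% of their 50-base stretches with other genes, so their own levels are uncertain.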

How the data were processed

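Poly(A) RNA of BMBAs had been captured on oligo-dT beads, amplified as whole-transcriptome cDNA (TAS-Seq workflow) and sequenced after fragmentation. For the RNA, a column kit stands in the labels and direct lysis in the methods. The authors trimmed reads with Cutadapt 3.4, mapped them to reference RNA with Bowtie2 and deposited raw read counts per gene symbol. The methods name the build GRCm38, whereas the submitters' processing notes list GRCm39. Molecular identifiers and strand handling are not given in the sources used here, so amplified copies of one cDNA may be counted more than 1 time. Positions, lengths and overlaps came from GENCODE M21 (GRCm38), which held 96.12% of the symbols.

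The deposited counts went into edgeR 4.0.16 (R 4.3.3) with filterByExpr, TMM scaling and the quasi-likelihood F test, group as the only term and all 6 libraries in the fit, a design close to the TCC package of the study, which builds on edgeR. Tests were two-sided, p-values were adjusted by Benjamini-Hochberg across every tested gene, and each SE is the log2 fold change divided by the root of F. No pair of libraries was alike within sampling noise (chi-square per degree of freedom at least 2.94). The test was checked on simulated data. The members, gene lists and marker lists were chosen with earlier results of these data known. Named genes are all members, the 4 genes of each other list with the smallest adjusted p below 0.05, genes named as not called or not tested, and the 5 genes nearest to Nfil3. Other genes are marked, except the overlapping genes Thra and Sphk2, the genes of NK and innate lymphoid cells, and those of the cAMP and glucocorticoid list, which were also named after their values were seen. The lists of neutrophil, eosinophil, mast cell, dendritic cell, B and T cell and erythroid markers were used as checks of the culture. A total of 3 genes of these lists are not reported here and stand in no count of a list.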

Additional observations from a re-analysis of the deposited data

How the results depend on the processing

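Alternatives were other scalings (DESeq2 1.42.0 size factors, library totals, iterated TMM), other filters on low counts (none, or 1 CPM in 3 libraries), the DESeq2 Wald test, the edgeR exact test, limma-voom 3.58.1, thinned counts at the depth of the smallest library, a replicate block, a test against a fold of 1.5, an adjusted p below 0.01, and leaving out each library. In all of them 2 members were called higher, and 5 to 7 were called lower, 6 to 7 with 1 library left out. The 5 came from the test against a fold of 1.5, without Tef, and the 7 from library totals and from leaving out IL-3 replicate 1, with Clock. All 10 members kept their sign in every alternative that gave them a value, and the calls of members other than Tef and Clock were the same in all of them. Nfil3 ranged from 2.16 to 2.25 with 1 library left out, and it was 2.22 with the replicate block, which changed no call of a member. Over all tested genes, libraries with the same replicate number did not deviate together from their group means (correlations -0.0087, -0.016 and -0.022). Among the members, Per1, Nr1d1 and Nr1d2 were lowest in replicate 3 of both groups, Nfil3 in replicate 1 and Clock in replicate 2. The other members were lowest in different replicates. With the block, the edgeR adjusted p was 2.23e-06 for Per1, 1.62e-06 for Nr1d1 and 0.000478 for Nr1d2. These values and that of Clock were lower than without it, and those of the other members higher. Whether the numbers pair the cultures is not settled by these values. With the replicate block 2842 genes were higher and 3247 lower, against 3003 and 3372 without it. Library totals gave 1698 higher and 5030 lower genes, by the shift of all values, and called 5 other core clock genes lower in place of 3. By its construction, the 1.5-fold test called fewer genes, 709 higher and 883 lower. With 1 library left out, 0 to 1 other core clock genes were called higher and 3 to 4 lower, and 2482 to 2787 of all genes higher and 2883 to 3108 lower. Signs turned for uncalled genes only. With library totals Alas1 was at -0.0251 and Cebpd at -0.0440. With 1 library left out, the log2 fold change of Arntl ranged from -0.199 to 0.0771 (the last without PBS replicate 3), that of Gsk3b from -0.101 to 0.0062 (without PBS replicate 2) and that of Mmp9 from -0.224 to 0.0318 (without IL-3 replicate 3). The causes of the other changes were not tested. Genes too rare to be tested give no result at this depth, and Per2 had only 22 to 40 counts per library.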

Other observations

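Per1 is also an early response gene of cAMP and glucocorticoid signalling, and 10 other genes of that kind were read too. Of these, 5 were called higher and 3 lower (all tested genes, 18.0% and 20.2%), with a median log2 fold change of 0.13. Tsc22d3, which encodes the glucocorticoid-induced protein GILZ, fell from 37.6, 35.5 and 33.1 CPM to 11.4, 9.08 and 9.54 CPM (log2 fold change -1.83, edgeR adjusted p 3.28e-09). The kinase gene Sgk1 fell as well, with a log2 fold change of -0.88 (edgeR adjusted p 2.64e-08), as did Zbtb16 with -1.48. Fkbp5, another glucocorticoid-induced gene, rose by 0.51 (edgeR adjusted p 8.04e-06). The orphan receptor genes of the NR4A family rose, with log2 fold changes of 3.003 for Nr4a3, 1.56 for Nr4a1 and 0.59 for Nr4a2, and Crem rose by 0.42 on the log2 scale. The Nr4a3 value was 3.96 without PBS replicate 2, which had 77 counts against 22 and 19. Nr4a2 had at most 5.83 CPM and lost its call under 7 of 16 alternatives, while Sik1 and Klf9 were not called. Sik1, at -0.43 with groups that did not overlap, was called lower with library totals, iterated TMM and the edgeR exact test (adjusted p 0.0101, 0.0396 and 0.0463), and Klf9 with library totals.

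The C/EBP factors are another bZIP family. A list of 7 genes was read for them, which also held Cebpz, a gene that shares the symbol but encodes a CCAAT-binding protein without a bZIP domain. Of the 7, 6 were tested, with 2 called higher and 2 lower (all tested genes, 18.0% and 20.2%) and a median log2 fold change of 0.04. Cebpa, a factor of granulocyte and monocyte development, fell from 254, 268 and 269 CPM to 162, 179 and 143 CPM (log2 fold change -0.71, edgeR adjusted p 9.07e-07), and Ddit3, the stress-induced member CHOP, was at -0.43 (edgeR adjusted p 0.000986). Cebpb was the only C/EBP factor called higher, at 0.51 (edgeR adjusted p 0.0411), and lost its call under 9 of 16 alternatives. The other gene called higher was Cebpz, at 0.38 (edgeR adjusted p 0.00541), which lost its call with library totals. Cebpd and Cebpg were not called (Cebpg was called lower with library totals), and Cebpe was too rare to be tested.

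Markers of further cell types were also measured, beside 18.0% of all tested genes called higher and 20.2% lower. Of 6 mast cell markers 4 were called higher (sum 840.4 to 945 CPM in PBS and 1437 to 1571 CPM in IL-3). Of 6 tested neutrophil markers 3 were called higher and 1 lower, of 5 tested eosinophil markers 1 higher and 3 lower, of 6 dendritic cell markers 1 higher and 1 lower, of 4 tested B and T cell markers none, and of 3 tested erythroid markers 2 lower.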
